A study of Homo sapiens with 12 samples.

Results

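Metallothioneins are small cysteine-rich proteins that bind zinc and copper and take up toxic metals such as cadmium. The genes described here are 8 genes of cellular zinc handling, chosen by symbol: the metallothionein genes MT2A, MT1E, MT1F, MT1X, MT1G and MT1M, the transcription factor MTF1 and the zinc exporter SLC30A1. They are 8 of the 29890 genes listed for 5637 cells and of the 58735 genes listed for 786-O cells, and each was found once in both tables.

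Gene expression was measured by RNA-seq in 12 libraries, 3 in each of 4 arms. The arms were 5637 cells (a bladder carcinoma line) with a short hairpin against CBX7 (shCBX7, as the titles name it), 5637 cells with a control hairpin (sh control), 786-O cells (a clear cell renal carcinoma line) with shCBX7, and 786-O cells with sh control. The table headers call the silenced arms si, not sh. Of the 3 sh control samples of 5637, 2 have titles with another line number, while their cell line label is 5637. All cells grew in RPMI-1640 with fetal bovine serum, and the labels name no further treatment, metal or drug. CBX7 is a chromobox subunit of Polycomb repressive complex 1, which keeps genes silent, and the series asks what changes when it is lowered. Whether an arm holds 1 clone or a pool of cells, and whether its libraries came from separate cultures, is not given, so p-values here reflect library-to-library spread alone, and that spread may be technical. In bulk RNA, fewer cells that express a gene and less RNA per cell cannot be told apart.

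The unit was FPKM, in which fragments are divided by gene length and by a total for the library, so that levels are per length. The reads recovered from the FPKM values numbered 17744835 to 29198095 for a 5637 library and 16384151 to 18868874 for a 786-O library. CBX7 itself was lower in every shCBX7 library, at 1.88 ± 0.086 FPKM in shCBX7 against 2.26 ± 0.14 FPKM in sh control 5637 cells, and at 0.990 ± 0.089 FPKM in shCBX7 against 1.62 ± 0.13 FPKM in sh control 786-O cells (SD, n = 3 each). The shCBX7 mean was 83.3% of the control mean in 5637 and 61.0% in 786-O. On the log2(FPKM + 1) scale the change was -0.18 in 5637 (limma adjusted p = 0.0188) and -0.40 in 786-O (limma adjusted p = 0.00364). Each 5637 library held 275 to 549 CBX7 reads and each 786-O library 111 to 240. Of 13 urothelial markers, 10 exceeded 1 FPKM in both arms of 5637, but UPK2, UPK1B and KRT20 were below it. Of 9 renal markers, 6 in the shCBX7 arm and 7 in the sh control arm exceeded 1 FPKM in 786-O, PAX8 and CDH6 among them, while CA9 averaged 0.624 FPKM in shCBX7 and 0.674 FPKM in sh control cells and NDUFA4L2 was at or near 0. The 2 tables were normalized separately, so levels set side by side between the lines are a description and were not tested.

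Zinc homeostasis in mammalian cells is built around a feedback. MTF1 is a zinc-finger protein that is activated by zinc and binds metal response elements, short DNA motifs with a conserved core, in front of the metallothionein genes and of SLC30A1. The metallothioneins then bind the metal, and SLC30A1, also called ZnT1, exports zinc across the plasma membrane. MT2A and most MT1 genes also respond to glucocorticoids, oxidants or other stress, and the human genes lie side by side on 16q, where MT1 genes are switched on in different sets from tissue to tissue.

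The coding sequences are shown because the members are closely alike and short reads must tell them apart. All 6 metallothionein members have 3 coding exons and 20 cysteine codons, in 61 codons (62 in MT1G). The cysteine codons are in capitals in the sequences of the 4 members with an appreciable level in either line, which run 5′ to 3′ from start to stop codon in the GENCODE release 29 transcripts.
MT2A coding sequence: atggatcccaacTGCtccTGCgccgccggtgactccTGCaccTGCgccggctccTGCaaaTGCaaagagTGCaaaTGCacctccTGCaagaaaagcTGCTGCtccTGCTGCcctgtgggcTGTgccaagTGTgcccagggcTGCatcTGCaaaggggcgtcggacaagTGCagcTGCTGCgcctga
MT1E coding sequence: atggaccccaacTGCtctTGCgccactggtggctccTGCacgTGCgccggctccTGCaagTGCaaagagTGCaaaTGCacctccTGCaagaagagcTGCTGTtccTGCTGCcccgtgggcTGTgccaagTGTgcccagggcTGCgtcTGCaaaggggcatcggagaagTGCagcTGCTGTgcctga
MT1F coding sequence: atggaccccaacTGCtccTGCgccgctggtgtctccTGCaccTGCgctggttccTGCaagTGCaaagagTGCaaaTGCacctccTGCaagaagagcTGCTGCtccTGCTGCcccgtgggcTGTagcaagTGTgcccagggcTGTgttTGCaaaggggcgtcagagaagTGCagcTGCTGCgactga
MT1X coding sequence: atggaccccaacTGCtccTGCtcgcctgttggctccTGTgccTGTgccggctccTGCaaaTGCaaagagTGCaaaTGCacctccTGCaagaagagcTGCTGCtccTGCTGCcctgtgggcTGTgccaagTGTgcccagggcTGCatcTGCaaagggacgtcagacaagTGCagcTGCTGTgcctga

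Between pairs of the 6 members, 88.7% of coding positions (MT1F and MT1X) to 94.2% (MT1G and MT2A) were identical. Of the 50-base windows of each gene's transcripts, 3.02% of MT2A, 7.10% of MT1E, 1.22% of MT1F and 18.3% of MT1X windows also occurred, letter for letter, in transcripts of another gene. For MT1X, 14.6% of windows lay in AC026461.1, a transcript that overlaps it on the same strand and is listed at 0 in every 786-O library. At 100 bases no window of MT2A, MT1E or MT1F was shared, and 11.3% of MT1X windows were. SLC30A1 shared no window at either length and MTF1 0.89% at 50 bases. How the authors placed reads that match several genes is not given, so the MT1 values carry this uncertainty.

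Promoters are shown for the 3 members that passed a test in at least 1 line, MT2A, MT1X and SLC30A1, and for MT1H, a metallothionein gene outside the 8 that was listed at 0 in 11 of 12 libraries. They are taken from RefSeq (GRCh38.p14), which held 4 of the 8 members, and span 250 bases before to 50 after the annotated start, 5′ to 3′ on the gene's strand. Capitals mark the core of the metal response element, searched as TGCACNC or TGCGCNC on both strands, and no 2 marked cores overlap.
MT2A promoter (chr16:56608334-56608633, plus strand): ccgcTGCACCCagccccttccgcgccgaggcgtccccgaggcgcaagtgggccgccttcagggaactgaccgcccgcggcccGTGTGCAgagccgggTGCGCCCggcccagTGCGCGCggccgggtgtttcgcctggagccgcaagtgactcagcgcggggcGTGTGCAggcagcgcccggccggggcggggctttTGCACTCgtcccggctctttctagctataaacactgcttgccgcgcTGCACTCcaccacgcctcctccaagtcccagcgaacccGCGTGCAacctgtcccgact
MT1X promoter (chr16:56682220-56682519, plus strand): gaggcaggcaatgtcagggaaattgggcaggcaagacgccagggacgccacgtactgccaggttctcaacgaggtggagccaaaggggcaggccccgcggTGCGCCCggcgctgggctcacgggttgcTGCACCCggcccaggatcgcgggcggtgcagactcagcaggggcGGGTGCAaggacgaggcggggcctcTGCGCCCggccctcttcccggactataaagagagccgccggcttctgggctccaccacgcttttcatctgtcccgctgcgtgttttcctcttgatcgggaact
SLC30A1 promoter (chr1:211579112-211579411, minus strand): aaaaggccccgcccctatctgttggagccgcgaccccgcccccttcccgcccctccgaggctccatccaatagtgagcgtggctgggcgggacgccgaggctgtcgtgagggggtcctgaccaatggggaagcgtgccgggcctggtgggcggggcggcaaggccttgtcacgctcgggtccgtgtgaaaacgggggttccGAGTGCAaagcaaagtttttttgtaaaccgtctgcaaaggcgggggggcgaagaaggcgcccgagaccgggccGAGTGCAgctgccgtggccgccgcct
MT1H promoter (chr16:56669564-56669863, plus strand): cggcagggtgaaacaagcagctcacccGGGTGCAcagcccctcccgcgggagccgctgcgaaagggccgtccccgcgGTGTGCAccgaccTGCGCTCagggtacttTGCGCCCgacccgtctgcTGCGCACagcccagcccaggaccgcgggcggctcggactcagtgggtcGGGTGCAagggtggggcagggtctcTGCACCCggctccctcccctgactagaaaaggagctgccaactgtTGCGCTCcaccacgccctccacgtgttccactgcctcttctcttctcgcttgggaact

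The MT2A window held 8 cores, the MT1X window 4 and the SLC30A1 window 2. Of all 35116 RefSeq promoter windows, 29.6% held at least 1 core, 8.60% at least 2, 0.601% at least 4 and 0.020% at least 8. MT1H held 8 cores, the number in MT2A, yet it was listed at 0 in all 5637 libraries and had 1 read in 1 shCBX7 library of 786-O. The window of MTF1 held none of these letters. A match is a stretch of letters and was not tested for binding. The RefSeq starts differ from the GENCODE release 29 gene boundaries: the MT2A window lies inside the GENCODE gene, and the SLC30A1 window lies upstream of it.

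In the authors' coordinates (GRCh38, GENCODE release 29) the metallothionein members lie on chromosome 16: MT2A (ENSG00000125148) at chr16:56608199-56609497, MT1E at chr16:56625475-56627112, MT1M at chr16:56632233-56633986, MT1F at chr16:56657694-56660698 and MT1X at chr16:56682424-56684196, all on the plus strand, with MT1G at chr16:56666731-56668065 on the minus strand. MTF1 at chr1:37809567-37859620 and SLC30A1 at chr1:211571568-211578742 lie on the minus strand of chromosome 1. All 8 are annotated as protein-coding.

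**Figure D1:**
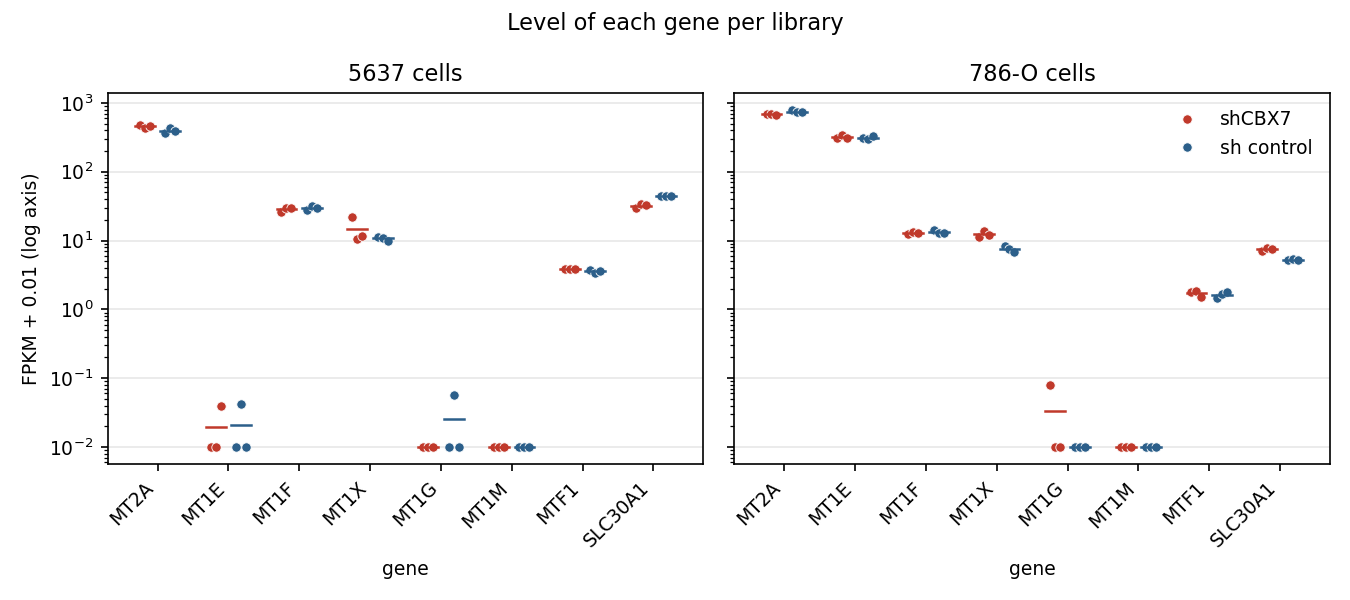
FPKM plus 0.01 on a log axis for each of the 8 genes, 1 point per library and a line at each arm's mean, shCBX7 left and sh control right. MT2A tops both lines, MT1E is near 0 in 5637 and above 290 FPKM in every 786-O library, and MT1G and MT1M are at or near 0 in both.

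MT2A, the most widely expressed human metallothionein, was the highest of the 8 in every library. In 5637 it stood at 472, 434 and 463 FPKM in the shCBX7 libraries, against 365, 428 and 387 FPKM in the sh control libraries. All 3 shCBX7 values lay above all 3 sh control values, although the lowest shCBX7 library, at 434, was close to the highest sh control library, at 428. The mean was 456 ± 19.7 FPKM in shCBX7 and 393 ± 32.1 FPKM in sh control cells (SD, n = 3 each), or 116% of the control mean. MT2A rose in 5637 by 0.22 on the log2(FPKM + 1) scale (SE 0.060, limma adjusted p = 0.0239).

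That call in 5637 was lost without either of 2 shCBX7 libraries (limma adjusted p = 0.0719 and 0.0678) or either of 2 sh control libraries (limma adjusted p = 0.0607 and 0.0701), and with no filter on low values (limma adjusted p = 0.0766), while the log2 change stayed between 0.16 and 0.28 over all alternatives. By level MT2A was the 25th to 30th gene of the table in shCBX7 libraries and the 34th to 40th in sh control libraries of 5637.

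In 786-O, MT2A went the other way on the deposited scale. It stood at 679, 696 and 662 FPKM in the shCBX7 libraries, against 778, 733 and 728 FPKM in the sh control libraries, and the arms did not overlap. The mean was 679 ± 16.8 FPKM in shCBX7 and 747 ± 27.7 FPKM in sh control cells (SD, n = 3 each), or 91.0% of the control mean. Its log2 change was -0.14 (SE 0.046, limma adjusted p = 0.0422), but with quantile normalization the direction flipped, to 0.05 (limma adjusted p = 0.361). The call was also lost with no filter (limma adjusted p = 0.184), median centring (0.0697), no mean-variance trend (0.0722) and without any 1 of the 6 libraries (limma adjusted p = 0.0515 to 0.132). Fitting same-numbered libraries as a block lost it as well. The call was kept with a pseudocount of 0.1 and with voom. Each value rested on 15077 to 17450 reads. The effect in 786-O minus that in 5637 was -0.35 (SE 0.077, limma interaction adjusted p = 0.00244), and it stayed between -0.41 and -0.21 and past the threshold in all 18 alternatives (limma adjusted p up to 0.0199).

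SLC30A1, the zinc exporter, moved in both lines and in opposite directions. In 5637 it stood at 29.8, 33.7 and 32.7 FPKM in the shCBX7 libraries, against 44.6, 44.1 and 45.1 FPKM in the sh control libraries. The arms lay far apart, and the sh control libraries differed among themselves by under 1 FPKM. The mean was 32.1 ± 2.03 FPKM in shCBX7 and 44.6 ± 0.470 FPKM in sh control cells (SD, n = 3 each), 71.9% of the control mean, so SLC30A1 fell there, by a log2 change of -0.47 (SE 0.043, limma adjusted p = 2.94e-04).

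In 786-O, SLC30A1 stood at 6.98, 7.83 and 7.47 FPKM in the shCBX7 libraries, against 5.24, 5.32 and 5.27 FPKM in the sh control libraries. Every shCBX7 library again lay outside the sh control range, here above it. The mean was 7.43 ± 0.427 FPKM in shCBX7 and 5.28 ± 0.041 FPKM in sh control cells (SD, n = 3 each), 141% of the control mean, so SLC30A1 rose, by a log2 change of 0.42 (SE 0.055, limma adjusted p = 5.51e-04). The difference between the lines was 0.89 (SE 0.067, limma interaction adjusted p = 7.38e-07). Both calls and their difference held under every alternative run. A 5637 library held 3227 to 7516 of its reads and a 786-O library 476 to 729.

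**Figure D2:**
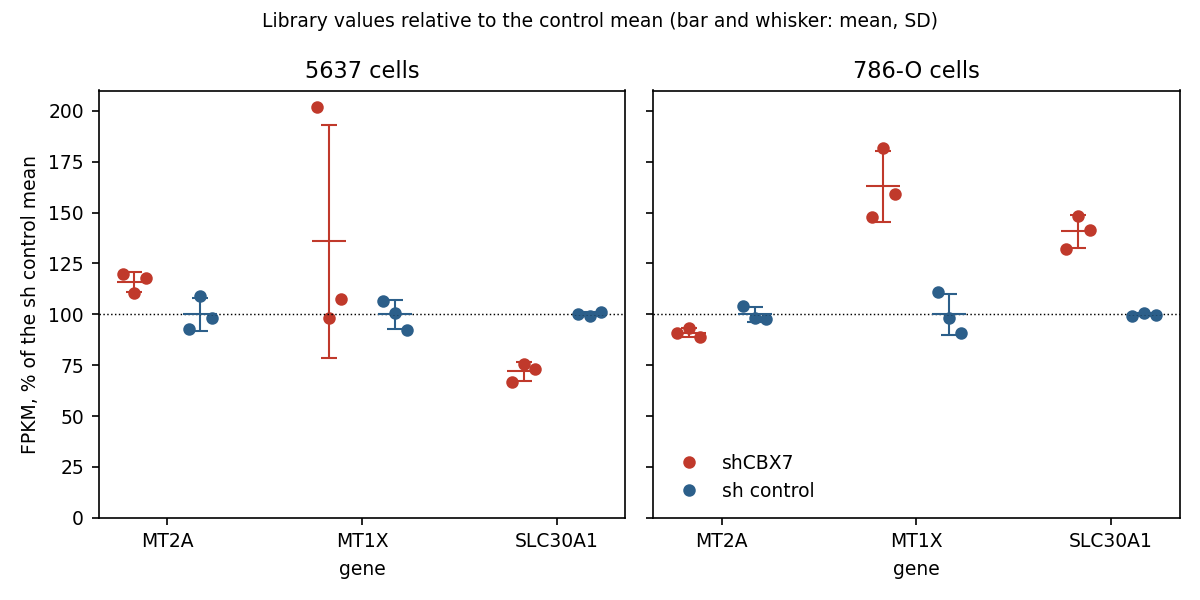
FPKM of MT2A, MT1X and SLC30A1 in each library as a percentage of the sh control mean of the same line, shCBX7 left and sh control right, with mean and SD (n = 3). SLC30A1 averages 71.9% in shCBX7 5637 cells and 141% in shCBX7 786-O cells, MT2A 116% and 91.0% (in 786-O its direction flips with quantile normalization), and 1 shCBX7 library of 5637 stands apart for MT1X.

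MT2A and SLC30A1 thus moved against each other within each line, except that in 786-O the direction of MT2A flips with quantile normalization. The ratio of MT2A to SLC30A1 FPKM, which no rescaling of a whole library changes, was 14.3 ± 1.48 in shCBX7 and 8.83 ± 0.787 in sh control 5637 cells (SD, n = 3 each). In 786-O it was 91.6 ± 4.88 in shCBX7 and 141 ± 6.08 in sh control cells (SD, n = 3 each). The arms did not overlap in either line, at 12.9 to 15.8 against 8.19 to 9.71 in 5637 and 88.7 to 97.2 against 138 to 148 in 786-O. As both genes already parted the arms in opposite directions on this scale, their ratio had to part them too. It is a description and no separate evidence, and no test was run on it.

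MT1X, a metallothionein that responds to zinc in many cell types, rose in 786-O. It stood at 11.2, 13.8 and 12.1 FPKM in the shCBX7 libraries, against 8.41, 7.45 and 6.90 FPKM in the sh control libraries, from 202 to 408 reads each. The arms were well apart, with means of 12.4 ± 1.32 FPKM in shCBX7 and 7.59 ± 0.765 FPKM in sh control cells (SD, n = 3 each), 163% of the control mean. Its log2 change was 0.64 (SE 0.091, limma adjusted p = 9.00e-04) and the call held under every alternative, between 0.56 and 0.71.

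In 5637, MT1X stood at 21.6, 10.5 and 11.5 FPKM in the shCBX7 libraries, against 11.4, 10.8 and 9.89 FPKM in the sh control libraries. The arms overlapped and 1 shCBX7 library, replicate 1, stood apart. Its value was 1.88 times the highest of the other 5 libraries, from 758 reads in the library with the fewest reads of the line. Of 12689 tested genes, 10 had a ratio at least as large in that library, 2 of them with a mean over 5 FPKM, and MT1X itself is included in both counts. The log2 change of 0.34 (SE 0.235) did not pass the test (limma adjusted p = 0.276), and without that library it was 0.04 (limma adjusted p = 0.678).

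The difference between the lines in the MT1X effect was 0.30 (SE 0.280, 95% interval -0.32 to 0.91) and did not pass (limma interaction adjusted p = 0.399). Without shCBX7 replicate 1 of 5637 it was 0.60 and passed (limma adjusted p = 0.00268), so 1 library decided this call.

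MT1E, a neighbour of MT2A in the cluster, differed most of the 8 in level between the separately normalized tables. In 786-O it stood at 311, 338 and 308 FPKM in the shCBX7 libraries, against 313, 295 and 325 FPKM in the sh control libraries, and it was the second highest of the 8. The arms overlapped, although 1 shCBX7 library lay above all sh control libraries and 1 sh control library below all shCBX7 libraries, with means of 319 ± 16.4 FPKM in shCBX7 and 311 ± 15.01 FPKM in sh control cells (SD, n = 3 each), and the log2 change was 0.04 (95% interval -0.10 to 0.17, limma adjusted p = 0.615). In 5637 it was listed at 0 in 4 of 6 libraries and had 1 read in 1 shCBX7 library and 1 in 1 sh control library. It was therefore not tested in 5637, and its interaction term has no meaning as a difference of 2 responses.

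A value of 0 in the 5637 table is given as listed. SLC39A7, a zinc transporter of the Golgi and endoplasmic reticulum that most cells use, was listed there at 0 to 0.0355 FPKM, with at most 2 reads per library. In 786-O it stood at 86.9 to 95.5 FPKM in shCBX7 and 108 to 110 FPKM in sh control libraries. HSPA1A and HSPA1B, 2 stress genes, were also near 0 in 5637, at no more than 0.0961 and 0.122 FPKM, and were not tested there. HSPA1B averaged 14.4 FPKM in shCBX7 and 24.6 FPKM in sh control 786-O cells. SLC39A7, HSPA1A and HSPA1B lie on chromosome 6, and MT1E on chromosome 16. Whether such genes were read at all in 5637 was not tested.

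MT1F did not pass the test in either line. In 5637 it stood at 25.7, 29.5 and 29.6 FPKM in the shCBX7 libraries, against 27.4, 32.2 and 29.9 FPKM in the sh control libraries, with a log2 change of -0.08 (95% interval -0.24 to 0.09, limma adjusted p = 0.421). In 786-O it stood at 12.5, 13.2 and 12.7 FPKM in the shCBX7 libraries, against 14.0, 12.7 and 12.8 FPKM in the sh control libraries, with a log2 change of -0.04 (95% interval -0.17 to 0.09, limma adjusted p = 0.606). The arms overlapped in both lines.

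MTF1, the zinc-sensing regulator, was low in both lines and passed no test. In 5637 it stood at 3.87, 3.79 and 3.80 FPKM in the shCBX7 libraries, against 3.77, 3.38 and 3.64 FPKM in the sh control libraries, a log2 change of 0.07 (95% interval -0.02 to 0.16, limma adjusted p = 0.186). The arms did not overlap but were parted by less than the spread of the sh control libraries. In 786-O it stood at 1.78, 1.87 and 1.51 FPKM in the shCBX7 libraries, against 1.43, 1.67 and 1.75 FPKM in the sh control libraries, which overlapped (log2 change 0.06, 95% interval -0.14 to 0.25, limma adjusted p = 0.607).

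MT1G and MT1M, metallothioneins that are prominent in kidney and liver, were at or near 0 throughout. MT1M was listed at 0 in all 12 libraries, which in 786-O allows up to 0.168 to 0.193 FPKM per library (the value of 3 reads, for counting error alone). MT1G had 1 read in 1 shCBX7 library of 786-O and 1 read in 1 sh control library of 5637, and was listed at 0 elsewhere. Neither was tested.

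In the order of levels, MT2A stood above all others in 5637, followed by SLC30A1 and MT1F, then MT1X and MTF1. SLC30A1 and MT1F were close in the shCBX7 arm, where the lowest SLC30A1 library had 29.8 FPKM and the highest MT1F library 29.6 FPKM, and well apart in the sh control arm. In 786-O the order was MT2A, MT1E, MT1F, MT1X, SLC30A1 and MTF1. MT1F and MT1X overlapped there in the shCBX7 arm, at 12.5 to 13.2 and 11.2 to 13.8 FPKM, and did not in the sh control arm, at 12.7 to 14.0 and 6.90 to 8.41 FPKM.

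Of the 8 genes, 5 were tested in 5637 and 6 in 786-O, the others falling under a mean of 0.5 FPKM. In 5637, 1 was called higher (MT2A), 1 lower (SLC30A1) and 3 were not called, where 44.5% of all tested genes were called, 24.4% higher and 20.2% lower. In 786-O, 2 were called higher (MT1X and SLC30A1), 1 lower (MT2A) and 3 were not called, where 51.0% of all tested genes were called, 24.7% higher and 26.2% lower. The difference between lines passed for 2 of the 6 tested, MT1E among the 6 although it was near 0 in 5637, against 53.3% of all genes. Arms did not overlap for 3 of the 5 tested in 5637 and 3 of the 6 in 786-O, against 56.4% and 60.3% of all tested genes. These shares are near or below those of all genes, so the count of calls says nothing particular about the metallothionein genes. The median log2 change was 0.07 in 5637 and 0.05 in 786-O, beside 0.0095 and -0.011 over all tested genes.

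**Figure D3:**
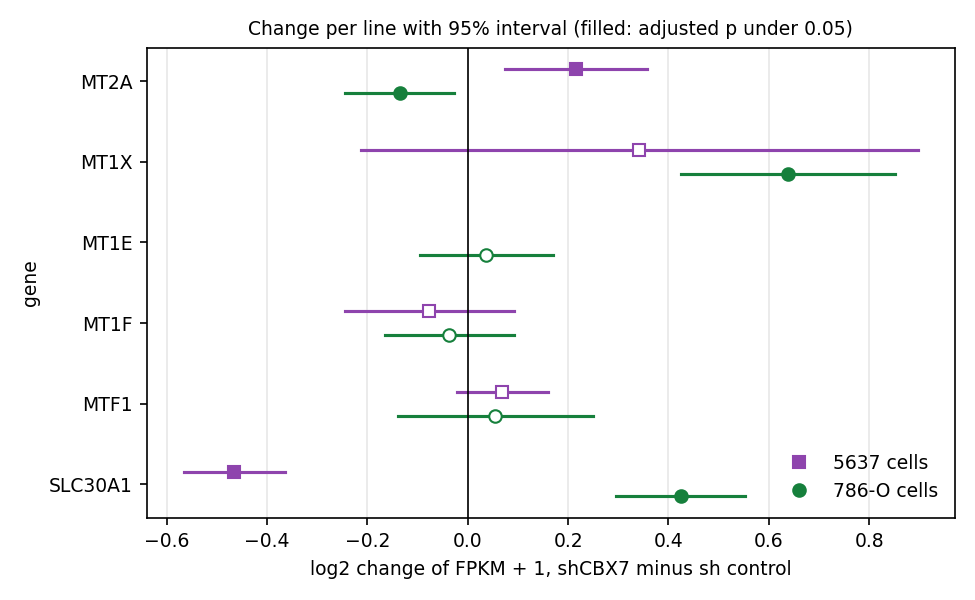
Limma log2 change of FPKM + 1 (shCBX7 minus sh control) with its 95% interval for each tested member, squares for 5637 and circles for 786-O, filled where the adjusted p is under 0.05. SLC30A1 lies at -0.47 in 5637 and 0.42 in 786-O, MT2A at 0.22 and -0.14 (0.05 with quantile normalization), and MT1X at 0.34 with a wide interval and 0.64.

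Summed over the 6 metallothionein members, the level was 499 ± 22.8 FPKM in shCBX7 and 434 ± 34.3 FPKM in sh control 5637 cells (SD, n = 3 each), with ranges of 474 to 519 and 404 to 471 FPKM that did not overlap. In 786-O it was 1023 ± 34.0 FPKM in shCBX7 and 1078 ± 33.2 FPKM in sh control cells (SD, n = 3 each), and the ranges of 995 to 1061 and 1048 to 1113 FPKM overlapped. MT2A made up 91.4% of the sum in shCBX7 and 90.6% in sh control 5637 cells, and 66.4% in shCBX7 and 69.2% in sh control 786-O cells. MT1E made up 31.1% of it in shCBX7 and 28.8% in sh control 786-O cells.

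Along 16q the other metallothionein genes were listed at 0 or at low values, with 1 exception in 786-O. MT1L, annotated as a transcribed pseudogene between MT2A and MT1E, at chr16:56617476-56618818 on the plus strand, stood at 157, 195 and 169 FPKM in the shCBX7 libraries, against 101, 95.6 and 93.9 FPKM in the sh control libraries of 786-O. The arms did not overlap, and MT1L rose to 179% of the control mean by a log2 change of 0.83 (SE 0.080, limma adjusted p = 1.22e-04), a call that held in every alternative. Of its 50-base windows, 4.42% were shared, with MT1P3 alone, a pseudogene listed at 0 in all 786-O libraries. MT1L was listed at 0 in all 5637 libraries. With MT1L added, the sum of metallothionein FPKM was 1197 ± 51.2 in shCBX7 and 1175 ± 36.3 in sh control 786-O cells (SD, n = 3 each).

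The list of other metallothionein genes and pseudogenes held 15 entries, of which none could be tested in 5637 and 3 in 786-O. MT1L was higher, and MT2P1 (log2 change 0.46, limma adjusted p = 0.234) and MT1DP (0.14, limma adjusted p = 0.565) did not pass. Those 2 rested on at most 6 reads per library.

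**Figure D4:**
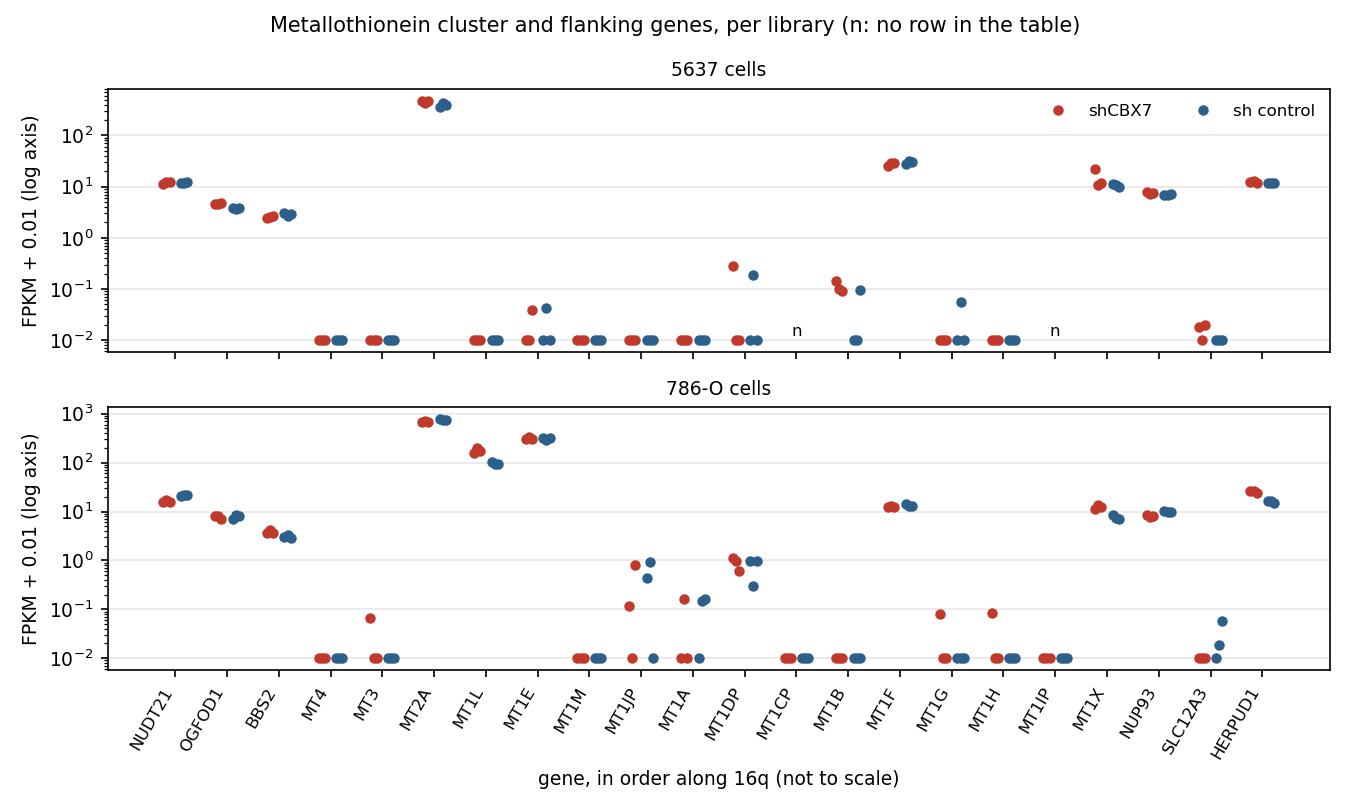
FPKM plus 0.01 on a log axis for the metallothionein genes and their neighbours in their order along 16q, 1 point per library, shCBX7 left and sh control right, with n where a table has no row for the gene. In 5637 MT2A, MT1F and MT1X stand above 1 FPKM, and in 786-O MT1L and MT1E join them between MT2A and MT1M.

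Genes that flank the cluster showed no common direction. In 5637, 7 of 9 were tested and 1 was called, OGFOD1, a prolyl hydroxylase of a ribosomal protein, which rose to 4.65 ± 0.139 FPKM in shCBX7, against 3.78 ± 0.095 FPKM in sh control cells (SD, n = 3 each; log2 change 0.24, limma adjusted p = 0.00126). In 786-O, 6 were tested, of which 2 rose and 2 fell. HERPUD1, of endoplasmic-reticulum protein degradation, stood at 25.4 ± 1.69 FPKM in shCBX7 and 15.7 ± 0.589 FPKM in sh control cells (SD, n = 3 each; log2 change 0.65, limma adjusted p = 1.05e-04). NUDT21, a cleavage factor of messenger RNA ends, fell (log2 change -0.36, limma adjusted p = 7.89e-04), and so did NUP93, a nuclear pore protein (-0.24, limma adjusted p = 0.00529). The list's median log2 change was -0.016 in 5637 and -0.036 in 786-O.

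The other zinc exporters showed no common direction in 5637. There, 6 of the other 9 SLC30 genes were tested, with 2 higher, 2 lower and a median log2 change of -0.03. SLC30A9 stood at 8.97 ± 0.291 FPKM in shCBX7 and 7.04 ± 0.333 FPKM in sh control cells (SD, n = 3 each; log2 change 0.31, limma adjusted p = 8.80e-04). SLC30A6, part of the exporter pair that loads zinc into the secretory pathway, also rose (0.30, limma adjusted p = 0.00124), while SLC30A3, a vesicle transporter, fell (-0.26, limma adjusted p = 0.00159).

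In 786-O, 4 SLC30 genes were tested, with none higher and 2 lower, and the median was -0.22. SLC30A5, the partner of SLC30A6, stood at 2.39 ± 0.050 FPKM in shCBX7 and 4.01 ± 0.184 FPKM in sh control cells (SD, n = 3 each; log2 change -0.56, limma adjusted p = 1.55e-04). SLC30A7, a Golgi zinc transporter, fell as well (-0.29, limma adjusted p = 0.00435). SLC30A1 was thus the exporter that rose in 786-O, among 5 tested there.

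The zinc importers of the SLC39 family were mixed. In 5637, 9 of 14 were tested, with 4 higher, 2 lower and a median of 0.04. SLC39A6 stood at 31.4 ± 0.250 FPKM in shCBX7 and 25.8 ± 0.917 FPKM in sh control cells (SD, n = 3 each; log2 change 0.27, limma adjusted p = 4.17e-04), and SLC39A4, the intestinal zinc importer, rose too (0.26, limma adjusted p = 0.00234). SLC39A8, which carries zinc, manganese and cadmium, fell (-0.14, limma adjusted p = 0.00423).

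In 786-O, 11 SLC39 genes were tested, with 2 higher, 4 lower and a median of -0.03. SLC39A3 stood at 5.04 ± 0.341 FPKM in shCBX7 and 10.4 ± 1.03 FPKM in sh control cells (SD, n = 3 each; log2 change -0.91, limma adjusted p = 7.43e-05). SLC39A14, an importer of zinc, iron and manganese, rose (0.36, limma adjusted p = 7.57e-04), and so did SLC39A11 (0.44, limma adjusted p = 8.23e-04).

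Copper, the other metal that metallothioneins bind in cells, had transport and chaperone genes that were mostly higher in 5637 and mostly lower in 786-O. Of 12 genes of copper transport and chaperones, 10 were tested in 5637, with 8 higher, none lower and a median of 0.15. Of all tested genes there, 24.4% were called higher and 20.2% lower. SCO1, a copper chaperone of cytochrome oxidase, stood at 2.90 ± 0.192 FPKM in shCBX7 and 2.19 ± 0.070 FPKM in sh control cells (SD, n = 3 each; log2 change 0.29, limma adjusted p = 0.00260), and the chaperone ATOX1 (0.16, limma adjusted p = 0.00426) and the copper pump ATP7A (0.20, limma adjusted p = 0.00445) rose with it. In 786-O, 9 were tested, with none higher, 6 lower and a median of -0.31, where 24.7% of all tested genes were called higher and 26.2% lower. SCO1 stood there at 3.70 ± 0.190 FPKM in shCBX7 and 5.16 ± 0.147 FPKM in sh control cells (SD, n = 3 each; log2 change -0.39, limma adjusted p = 9.14e-04). SOD1, the copper-zinc superoxide dismutase, fell (-0.36, limma adjusted p = 3.06e-04), as did the chaperone COX17 (-0.51, limma adjusted p = 0.00107). SCO2 has 2 rows in the 786-O table and was left out there.

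Genes that heavy metals and oxidants induce were tested beside the metallothioneins. In 5637, 12 of 14 were tested, with 7 higher, 1 lower and a median of 0.11. HMOX1, heme oxygenase, stood at 25.7 ± 0.817 FPKM in shCBX7 and 9.11 ± 0.297 FPKM in sh control cells (SD, n = 3 each; log2 change 1.40, limma adjusted p = 2.43e-06). The inducible heat shock gene HSPA6 (1.28, limma adjusted p = 2.43e-06) and the chaperone HSPH1 (0.33, limma adjusted p = 7.97e-05) also rose.

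In 786-O all 14 were tested, with 5 higher, 6 lower and a median of -0.12. HMOX1 rose there too, to 73.1 ± 2.03 FPKM in shCBX7, against 42.8 ± 2.15 FPKM in sh control cells (SD, n = 3 each; log2 change 0.76, limma adjusted p = 2.32e-05). The stress transcription factor ATF3 rose (1.06, limma adjusted p = 1.37e-05), and HSPA1B fell (-0.73, limma adjusted p = 3.63e-05), with the limit that its near-identical copy HSPA1A can share its reads. Of the other called genes, SLC7A11 (0.59), DNAJB1 (0.26) and HSPB1 (0.33) were higher in 786-O. GCLM (-0.53), SRXN1 (-0.53), TXNRD1 (-0.21), NQO1 (-0.21) and HSPA1A (-0.41) were lower. HMOX1, 1 gene of this mixed list, was thus higher in both lines. MT2A was higher in 5637 and, on the deposited scale but not with quantile normalization, lower in 786-O.

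Glucocorticoid-responsive genes, a further class that includes MT2A in many cells, were mixed in 5637, where all 10 tested were called, 5 higher and 5 lower, with a median of -0.0060. PER1, a clock gene, stood at 3.28 ± 0.034 FPKM in shCBX7 and 6.55 ± 0.161 FPKM in sh control cells (SD, n = 3 each; log2 change -0.82, limma adjusted p = 9.62e-06), and KLF9 fell with it (-0.41, limma adjusted p = 1.45e-04), while NFKBIA, the NF-kB inhibitor, rose (0.22, limma adjusted p = 1.74e-04). In 786-O, 10 were tested, with 7 higher, 1 lower and a median of 0.46. The lower gene was PER1 again (log2 change -0.77, limma adjusted p = 9.71e-05), so it fell in both lines. FKBP5 (0.02) and KLF9 (0.07) were not called in 786-O. CRISPLD2 stood at 14.0 ± 0.521 FPKM in shCBX7 and 4.18 ± 0.285 FPKM in sh control cells (SD, n = 3 each; log2 change 1.53, limma adjusted p = 2.32e-06), and the kinase SGK1 (1.06, limma adjusted p = 1.79e-05) and NFKBIA (0.81, limma adjusted p = 2.69e-05) rose as well. SGK1 averaged 4.47 FPKM in shCBX7 and 1.63 FPKM in sh control 786-O cells, or 275% of the control mean. Of all tested genes, 44.5% were called in 5637 (24.4% higher, 20.2% lower) and 51.0% in 786-O (24.7% higher, 26.2% lower). All the lists are to be read against these shares.

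**Figure D5:**
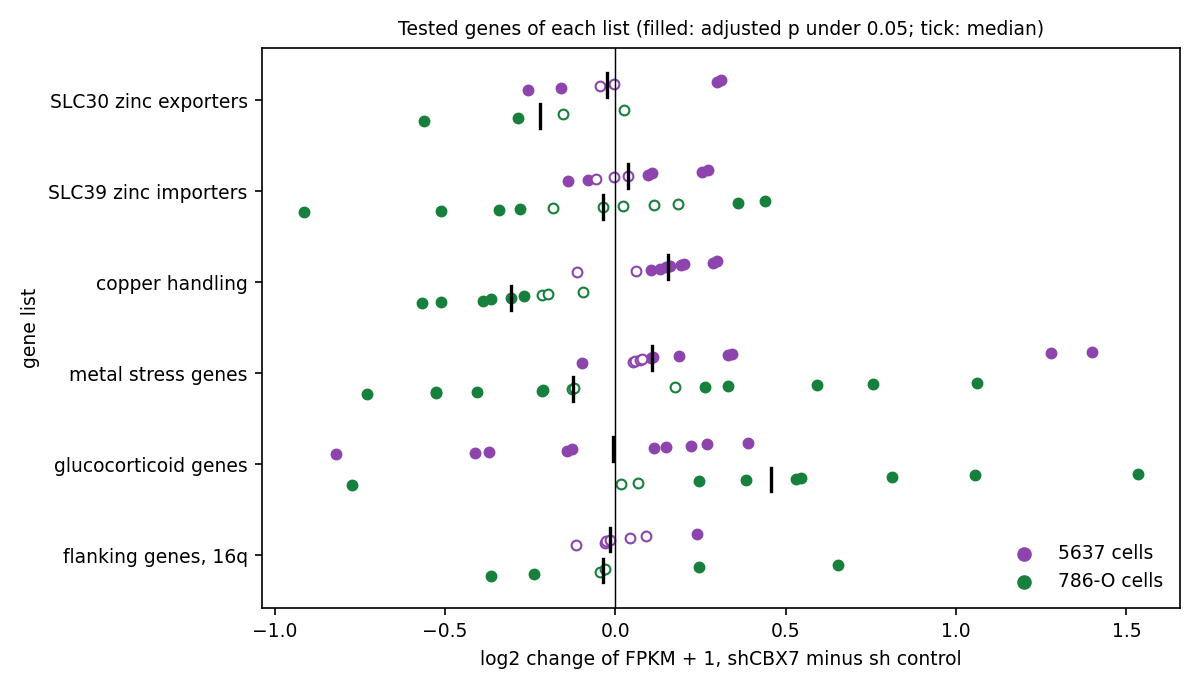
Limma log2 change of FPKM + 1 (shCBX7 minus sh control) of every tested gene of 6 lists, 5637 above 786-O, filled where the adjusted p is under 0.05, with a tick at each median. Copper genes have medians of 0.15 in 5637 and -0.31 in 786-O, and the glucocorticoid-responsive genes -0.0060 and 0.46.

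The 5 genes whose pattern was most like that of MT2A over the 12 libraries, by Pearson correlation of log2(FPKM + 1) centred within each line and among 10353 genes, were DNAJB12 (r = 0.936), PDHA1 (r = 0.933), TIMM8B (r = 0.933), EBNA1BP2 (r = 0.922) and SLC25A15 (r = 0.906). The points share libraries and arms, so the values describe a likeness in these 12 libraries and were not tested.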

How the data were processed

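Each line has its own table of FPKM as deposited by the authors, with a column per library, per the file headers. Libraries were made with a directional kit, per the labels' protocols; the sources used here do not give the aligner, the counter or the use of strand. The samples are human, yet the build in the submitters' processing notes is mm10, a mouse build. GENCODE release 29 (GRCh38) has the same start and end for all 58735 genes listed in 786-O. Samples were grouped by the arm in the title and by the line and genotype labels. The sh control columns of 5637 could be tied to their arm but not to single samples.

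Values were turned into log2(FPKM + 1), a scale that shrinks changes at low FPKM. Genes averaging 0.5 FPKM or more were tested with limma 3.58.1 (mean-variance trend, R 4.3.3), shCBX7 minus sh control within each line, with Benjamini-Hochberg adjustment over all tested genes and calls under 0.05. Effects in the lines were compared by an interaction term fitted over 12 libraries. The within-line steps were also run on simulated reads, with a common spread setting for all genes and few changed genes. These data differ in both respects, so that run does not measure error rates here. Dividing FPKM by the value of a single read gave reads: 93.9% of genes in 5637 and 100.0% in 786-O came out whole (tolerance 0.01), which served for depth and a voom fit, an alternative that called 5807 of 11618 genes in 5637 and 7248 of 13220 in 786-O. Other alternatives were a pseudocount of 0.1, no filter, quantile normalization, median centring, no trend, each library left out and the replicate block.

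The 8 members and the 7 lists were chosen with earlier results of these data known. Named genes are the 8 members, CBX7, up to 3 called genes per list and line with the smallest p, and the 5 genes most like MT2A. SLC39A7, MT1H and the pseudogenes other than MT1L were named after their values were seen, as were the marker genes. So were SLC30A4, FKBP5, GCLM, SRXN1, TXNRD1, NQO1, SLC7A11, DNAJB1 and HSPB1, and PER1 and KLF9 in 786-O. HSPA1A, SCO2 and AC026461.1 are named for shared reads or a doubled row.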

Additional observations from a re-analysis of the deposited data

Results flagged for a closer look

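These results were picked out because the shCBX7 effect differed between the 2 lines in a limma interaction test (adjusted p under 0.05), given as the log2 change in 786-O minus that in 5637. Over all genes 53.3% passed this test, and the list genes given are among those named in the report. The counts per list cover only genes tested within both lines, while the 53.3% covers every gene of the interaction test. Among the zinc genes the difference was -0.35 for MT2A (adjusted p = 0.00244) and 0.89 for SLC30A1 (adjusted p = 7.38e-07). CBX7, the silenced gene, differed by -0.22 (adjusted p = 0.0268), a call lost in 6 of 18 alternatives. Over those alternatives the CBX7 difference lay between -0.46 and -0.19. CBX7 is low enough for log2(FPKM + 1) to shrink its changes.

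Of the other zinc exporters tested within both lines 4 of 4 passed, all negative, by -0.28 (SLC30A9), -0.45 (SLC30A6), -0.56 (SLC30A5) and -0.24 (SLC30A7). SLC30A3 and SLC30A4 fell under the filter in 786-O and are outside that count. Their differences also passed but were positive, at 0.26 and 0.20 (limma interaction adjusted p = 0.00202 and 0.0135). In 786-O, SLC30A3 had at most 3 reads per library and SLC30A4 at most 14. These differences thus mirror the log2 changes in 5637, -0.26 and -0.16, and do not compare 2 measured responses. Of the importers 8 of 9 passed, 3 positive and 5 negative, among them -0.16 (SLC39A6), -0.29 (SLC39A4), 0.16 (SLC39A8), -0.95 (SLC39A3), 0.25 (SLC39A14) and 0.52 (SLC39A11). Of the copper genes 9 of 9 passed, all negative, among them -0.68 (SCO1), -0.38 (ATOX1), -0.51 (SOD1) and -0.40 (COX17).

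Of the stress genes 10 of 12 passed, 3 positive and 7 negative, among them -1.10 (HSPA6), -0.64 (HMOX1), -0.45 (HSPH1) and 0.87 (ATF3). HSPA6 averaged only 0.601 FPKM in shCBX7 and 0.414 FPKM in sh control 786-O cells (n = 3 each), from 14 to 32 reads. Its arms overlapped there, and its change did not pass (log2 change 0.18, limma adjusted p = 0.224). At that level log2(FPKM + 1) shrinks a change, so the -1.10 does not compare 2 well-measured responses. HMOX1 rose in both lines, less in 786-O. Of the glucocorticoid-responsive genes 8 of 10 passed, 7 positive and 1 negative (FKBP5, -0.25), among them 0.48 (KLF9), 0.59 (NFKBIA), 1.66 (CRISPLD2) and 0.94 (SGK1). Of the genes beside the cluster 5 of 6 passed, 2 positive and 3 negative, among them -0.27 (OGFOD1), 0.61 (HERPUD1), -0.34 (NUDT21) and -0.33 (NUP93).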

How the results depend on the processing

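The calls of SLC30A1 in both lines, of MT1X in 786-O and of the MT2A and SLC30A1 differences between lines held under all alternatives run. Of 289 alternative values for the 8 genes and CBX7, 252 kept direction and side of the threshold, 23 lost a call, 1 gained one and 13 changed sign. Of the 8 genes, 2 were called in 5637, but 1 with no filter on low values and 1 to 2 with a library left out, MT2A being the one lost. The sign of MT2A in 786-O turned with quantile normalization (0.0477, adjusted p = 0.361). The other sign changes concern values near 0 that passed no test. With a library left out, MT1E in 786-O ranged over -0.00511 to 0.0690 and its difference over -0.00338 to 0.0707. MT1F ranged over -0.0619 to 0.00703 in 786-O and its difference over -0.0253 to 0.0976. The MTF1 difference ranged over -0.0653 to 0.0428, and was 0.0127 with quantile normalization and 0.0211 with median centring. The causes were not tested. The CBX7 call in 5637 was lost without 1 shCBX7 or 1 sh control library (adjusted p = 0.0608 and 0.0586). For the list genes, 424 alternative values were compiled for 34 results, and all kept direction and call. Those results are the called genes with the smallest p per list and line, so stability was favoured by their selection. The other list genes, with calls nearer the threshold among them, were not followed through the alternatives.

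Replicate numbers were checked as pairs in 786-O: same-numbered libraries correlated weakly in their deviations, at 0.083, 0.077 and 0.057. Every library nevertheless correlated best with its own number, so whether the numbers mark pairs cannot be told. With the replicate block 6723 genes were called against 6736 without it, and 2 of the 8 genes against 3 (MT2A, adjusted p = 0.0552). In 5637 no paired fit was run: the sh control columns are numbered in the table, but the titles of those samples all end in the same number, so the labels pair none of them with a shCBX7 sample.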
